A study of Mus musculus with 11 samples.

Results

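The DNA methylation writers and erasers were described here as a set of 7 genes: the methyltransferases Dnmt1, Dnmt3a and Dnmt3b, the methyltransferase cofactor Uhrf1, and the dioxygenases Tet1, Tet2 and Tet3. They were chosen by symbol, from probe sets that the platform annotation lists with exactly 1 symbol, and each gene was represented by its probe set with the highest mean log2 intensity over the 11 arrays. All 7 were on the array, among 19933 genes that could be named in this way, and all 7 passed the filter on low values in the progenitors and over all arrays. Tet1 had 3 probe sets, Tet3 had 2, and each of the others had 1.

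Messenger RNA of C57Bl/6 mice was measured on 11 arrays, each a single sorted population. The mice carried gfp in both copies of Zbtb46 (KO), in 1 copy (Het) or in none (WT), and were studied without any treatment. CD4+ dendritic cells (DC) came from the spleen of KO and WT mice, sorted for CD11c, MHCII, CD172, CD11b and CD4 and against B220 and CD8. Bone marrow of KO, Het and WT mice gave the erythroid progenitor stages Pre MegE and Pre CFU-E and then CFU-E, all sorted as CD117+ and separated by CD150 and CD105. Each combination of genotype and cell type had 1 array, so the 3 genotypes stood in as the repeats of a stage, and the labels do not say how many mice were pooled or whether stages came from the same mice.

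DNA methylation in mammals is copied at each round of replication by Dnmt1, which Uhrf1 brings to newly replicated, half-methylated sites, while Dnmt3a and Dnmt3b can place methyl groups on unmethylated DNA. The Tet enzymes oxidise 5-methylcytosine, which opens a path to its loss through dilution or through base excision. In blood, Dnmt3a and Tet2 are best known as genes whose loss in stem cells favours clonal expansion, and erythroid maturation is known for a broad loss of DNA methylation along with rapid division. Uhrf1 and Dnmt1 are known as genes that cycling cells use in S phase.

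Promoter stretches are shown first for the members that hold the E2F motif, a sequence common in genes of S phase. In RefSeq windows of 250 bases before to 50 bases after each annotated start (GRCm38.p6), all 7 genes were matched, with 12 windows between them. The E2F motif, searched as TTTCCCGC, TTTCGCGC, TTTGGCGC or TTTGCCGC on both strands, was found in 1 window of Dnmt1 and in 1 window of Uhrf1 and in no window of the other 5 members. Of all 32851 windows of the same length, 2.26% held it. A match is a run of letters and not shown to be a site, and no match says only that those letters were not in the window. In the stretches below the matched letters are in capitals, written along the gene's own strand. The first Dnmt1 match reads as TTTCGCGC on the opposite strand and starts at position -219 from the start site; the second starts at position 34. The Uhrf1 match starts at position -185.
Dnmt1, chr9:20952824-20952853, minus strand: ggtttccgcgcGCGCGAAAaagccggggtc
Dnmt1, chr9:20952574-20952601, minus strand: gcggggcagcgTTTGGCGCgggctgtgc
Uhrf1, chr17:56304117-56304146, plus strand: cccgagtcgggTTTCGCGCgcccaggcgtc

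The promoters of Tet1 and Tet2, the 2 members with the steepest falls at the first erythroid step, are given to show how far members that fell together differ in CpG content, the letters on which these enzymes act. The 250 bases before the start held 15 CG in Tet1 and 51 CG in Tet2, here in capitals. Over the whole window the counts were 17 CG for Tet1 and 57 CG for Tet2, against a median of 7 over all windows and an upper quartile of 20. Of the 12 windows of the members, 7 were at or above that quartile.
Tet1, chr10:62887325-62887574, minus strand: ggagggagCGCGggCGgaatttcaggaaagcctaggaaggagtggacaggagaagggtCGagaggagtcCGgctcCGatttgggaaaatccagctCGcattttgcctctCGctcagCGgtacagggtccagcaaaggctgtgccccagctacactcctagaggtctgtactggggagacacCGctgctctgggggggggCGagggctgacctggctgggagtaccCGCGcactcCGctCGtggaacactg
Tet2, chr3:133544391-133544640, minus strand: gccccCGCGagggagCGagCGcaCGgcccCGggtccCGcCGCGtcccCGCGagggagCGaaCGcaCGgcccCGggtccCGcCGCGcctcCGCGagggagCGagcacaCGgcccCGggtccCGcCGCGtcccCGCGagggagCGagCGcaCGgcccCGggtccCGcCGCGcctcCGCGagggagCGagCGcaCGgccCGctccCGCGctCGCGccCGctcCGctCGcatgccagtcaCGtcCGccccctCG

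By RefSeq (GRCm38.p6) the genes lie at chr9:20907206-20959888 (Dnmt1), chr17:56303337-56323486 (Uhrf1), chr12:3801559-3914443 (Dnmt3a), chr2:153649411-153687730 (Dnmt3b), chr10:62804570-62887469 (Tet1), chr3:133463677-133545136 (Tet2) and chr6:83362373-83457208 (Tet3). All 7 are annotated as protein coding. The array reports 1 value per probe set for the whole gene, so isoforms were not separated.

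Levels are log2 of the deposited intensity, and no level of one gene is set against that of another. Array medians over all probe sets lay between 7.61 and 7.77, and arrays of the same cell type correlated at r of 0.993 to 0.999 over the 19933 named genes. Upper quartiles of intensity were unlike, at 605 in KO DC and 641 in WT DC against 968 to 1009 on the progenitor arrays. Zbtb46, the disrupted gene, had 8.02 in KO DC, against 9.67 in WT DC. In CFU-E it had 7.50 in KO, 8.62 in Het and 8.87 in WT. In Pre CFU-E it had 7.70 in KO, 8.30 in Het and 8.14 in WT, so Het lay above WT there. In Pre MegE it was under the array median in all 3 genotypes and checked nothing there. Of the markers of the labelled cells, all 6 of classical DC and all 5 of CD4+ DC were above the array median on both DC arrays, against 2 to 4 of 6 and 2 to 3 of 5 on the progenitor arrays. Itgax, Irf4 and Cd4 were below it on all 9 progenitor arrays. All 5 erythroid markers on the array were above the median on every progenitor array, and their summed intensity was 12084 to 13329 in Pre MegE, 21869 to 22545 in Pre CFU-E and 26355 to 27005 in CFU-E. In the DC, 4 macrophage markers (KO) and 5 (WT) of 5 were above the median, with summed intensities of 8430 in KO DC and 10014 in WT DC. Plasmacytoid DC markers were above the median for 4 of 4 genes on both DC arrays, CD8+ DC markers for 1 (KO) and 2 (WT) of 4. B cell markers were above it there for 1 of 4 and T cell markers for 1 of 3. On the progenitor arrays CD8+ DC markers were above it for 1 of 4 and T cell markers for 1 of 3. Plasmacytoid DC and B cell markers were each above it there for 2 to 3 of 4. Plasmacytoid DC markers summed to 1934.5 in KO DC, 1986.6 in WT DC and 1665 to 2021 in the progenitors. Of the erythroid markers, and of the early progenitor markers listed below, 3 of 5 each were above the median on both DC arrays. The part of cells of other types, and of fewer cells as against less RNA per cell, in the results was not tested.

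Along the erythroid path the set did not move as one. Dnmt1, the maintenance methyltransferase, differed by no more than 0.05 log2 at each step and was not called, Uhrf1 rose 1.53-fold over the 2 steps, and both de novo enzymes and all 3 Tet enzymes fell. Tet1 showed the steepest fall of the 7, to a level in CFU-E 4.70-fold lower than in Pre MegE. In each of the 3 stage comparisons 1 of 7 members was called higher and 5 of 7 lower, at an adjusted p under 0.05 in limma. Most genes on the array also changed, so these counts stand beside a high background. For Pre CFU-E against Pre MegE, 37.1% of the 10701 genes tested were called higher and 29.3% lower. For CFU-E against Pre CFU-E the shares were 18.7% higher and 25.3% lower, and for CFU-E against Pre MegE they were 41.5% higher and 35.1% lower. The median difference of the 7 members over both steps was -0.75 log2, beside 0.05 log2 for all genes tested. When each array was centred on its median, the median of all genes over both steps became 0.17 and 64.9% of the called genes were higher, in place of 54.2%, at the first step 66.7% in place of 55.9%, and at the second step 52% in place of 42.5%. No member changed the sign of a called stage difference under any scaling.

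**Figure D1:**
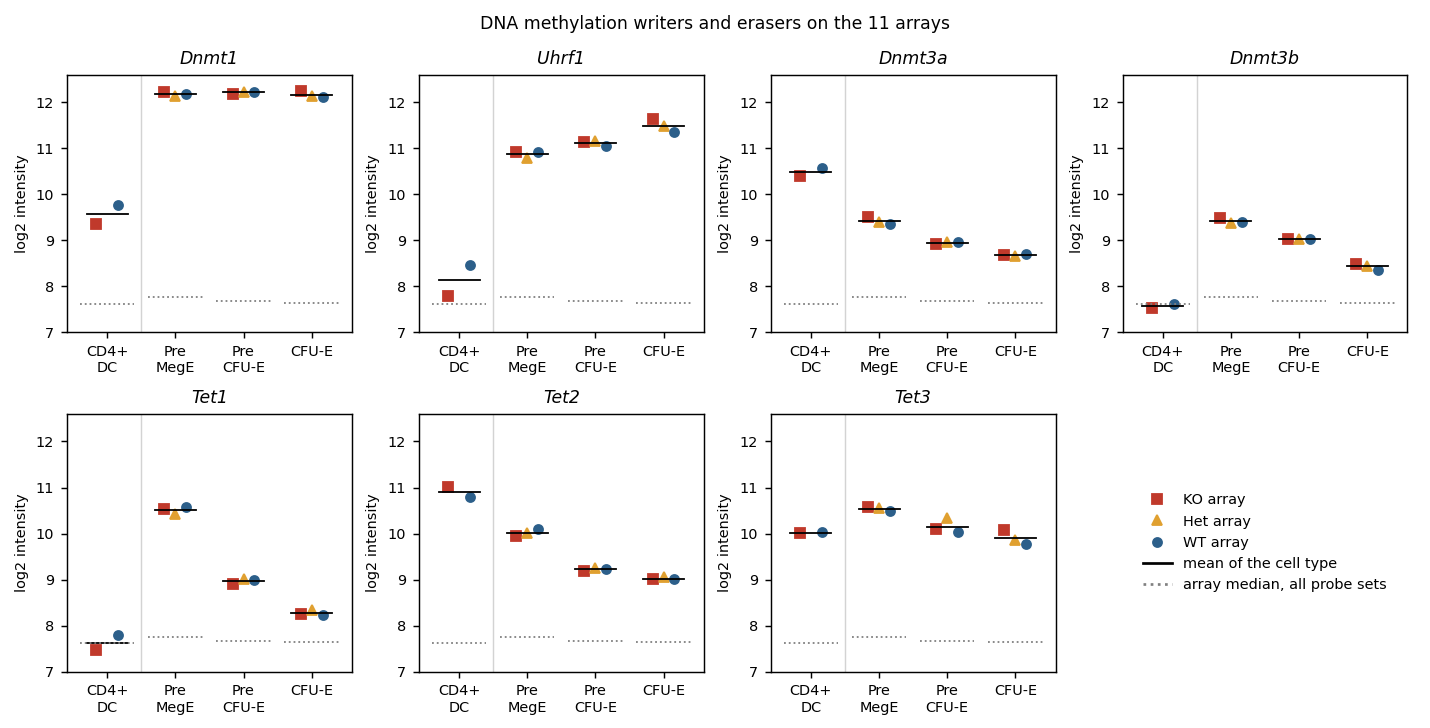
Log2 intensity of each of the 7 genes on the 11 arrays, by cell type (CD4+ DC, then the 3 progenitor stages). Squares are KO, triangles Het and circles WT arrays, short lines are means of a cell type (n = 2 for DC, n = 3 for each stage) and dotted lines the median of all probe sets; Tet1 falls at each stage while Dnmt1 stays between 12.10 and 12.25 in all progenitors.

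Dnmt1 showed no called difference between stages. In Pre MegE it had 12.22 in KO, 12.12 in Het and 12.19 in WT. In Pre CFU-E the levels were 12.18 in KO, 12.23 in Het and 12.23 in WT. CFU-E had 12.25 in KO, 12.14 in Het and 12.10 in WT. The 3 stages overlapped in full, and the difference over both steps was -0.01 log2, with a 95% confidence interval of -0.13 to 0.11 (adjusted p = 0.853). Neither step was called, at 0.04 (adjusted p = 0.555) and -0.05 (adjusted p = 0.485).

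Uhrf1, the protein that recognises half-methylated DNA for Dnmt1, rose at both steps. In Pre MegE it had 10.92 in KO, 10.78 in Het and 10.93 in WT. In Pre CFU-E it had 11.13 in KO, 11.15 in Het and 11.06 in WT. The CFU-E arrays had 11.64 in KO, 11.48 in Het and 11.35 in WT. No array of a later stage was as low as any of an earlier one, and the rise was seen in 3 of 3 genotypes at each step. The first step was 0.24 ± 0.07 log2 (SE, adjusted p = 0.0123) and the second 0.38 ± 0.07 log2 (SE, adjusted p = 0.00175). The first step missed the threshold with quantile normalization (0.16 log2, adjusted p = 0.0778) and without the KO Pre MegE, the Het Pre MegE or the Het Pre CFU-E array, at 0.18 to 0.22 log2.

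Dnmt3a, a de novo methyltransferase, fell at both steps. In Pre MegE it had 9.52 in KO, 9.41 in Het and 9.35 in WT. Pre CFU-E had 8.91 in KO, 8.96 in Het and 8.96 in WT. In CFU-E the levels were 8.68 in KO, 8.65 in Het and 8.69 in WT. The stages did not overlap. The first step was -0.48 ± 0.05 log2 (SE, adjusted p = 3.83e-05), the second -0.27 ± 0.05 log2 (SE, adjusted p = 0.00328), and the level in CFU-E was 1.68-fold lower than in Pre MegE.

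Dnmt3b, the other de novo methyltransferase, fell at both steps as well. Its levels in Pre MegE were 9.49 in KO, 9.37 in Het and 9.39 in WT. In Pre CFU-E all 3 genotypes had 9.02. In CFU-E it had 8.49 in KO, 8.44 in Het and 8.36 in WT. These stages were likewise apart, with differences of -0.40 ± 0.05 log2 (SE, adjusted p = 7.75e-05) and then -0.59 ± 0.05 log2 (SE, adjusted p = 1.31e-05). The CFU-E level was 1.98-fold lower than that in Pre MegE.

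Tet1 fell furthest. In Pre MegE it had 10.53 in KO, 10.42 in Het and 10.57 in WT. In Pre CFU-E it had 8.91 in KO, 9.02 in Het and 8.99 in WT. By CFU-E it had 8.25 in KO, 8.35 in Het and 8.23 in WT, on the probe set used still 0.60 to 0.70 log2 above the array median. The first step was -1.53 ± 0.06 log2 (SE, adjusted p = 6.68e-08), a 2.90-fold lower level, and the second was -0.70 ± 0.06 log2 (SE, adjusted p = 1.58e-05). The other 2 probe sets of Tet1 gave -1.58 and -1.49 log2 at the first step and -0.58 and -0.49 log2 at the second. The 3 probe sets thus fell together. In CFU-E the first of these other probe sets had 7.85 in KO, 7.58 in Het and 7.36 in WT. Its Het and WT values were under the medians of their arrays, 7.65 and 7.63.

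Tet2, the family member best known in blood, fell mainly at the first step. In Pre MegE it had 9.96 in KO, 10.0015 in Het and 10.09 in WT. In Pre CFU-E it had 9.18 in KO, 9.25 in Het and 9.24 in WT. Levels in CFU-E were 9.004 in KO, 9.05 in Het and 9.005 in WT. The stages did not overlap, although the second gap was small. The first step was -0.79 ± 0.05 log2 (SE, adjusted p = 8.79e-07) and the second -0.20 ± 0.05 log2 (SE, adjusted p = 0.00756).

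Tet3 had the smallest fall over both steps of the 3 Tet genes (-0.63 log2, adjusted p = 4.61e-05). In Pre MegE it had 10.58 in KO, 10.55 in Het and 10.48 in WT. In Pre CFU-E it had 10.09 in KO, 10.33 in Het and 10.04 in WT. The CFU-E levels were 10.07 in KO, 9.86 in Het and 9.78 in WT. Pre MegE stood above both later stages, but the KO CFU-E array lay above the WT Pre CFU-E array. The first step was -0.38 ± 0.08 log2 (SE, adjusted p = 0.00165), with -0.43 log2 from its second probe set. The second step was -0.25 ± 0.08 log2 (SE, adjusted p = 0.0279), with -0.16 log2 from the second probe set. That second step missed the threshold in 7 of 18 alternatives, among them leaving out the WT Pre CFU-E, WT CFU-E, Het Pre CFU-E or Het CFU-E array, where it was -0.15 to -0.26 log2.

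**Figure D2:**
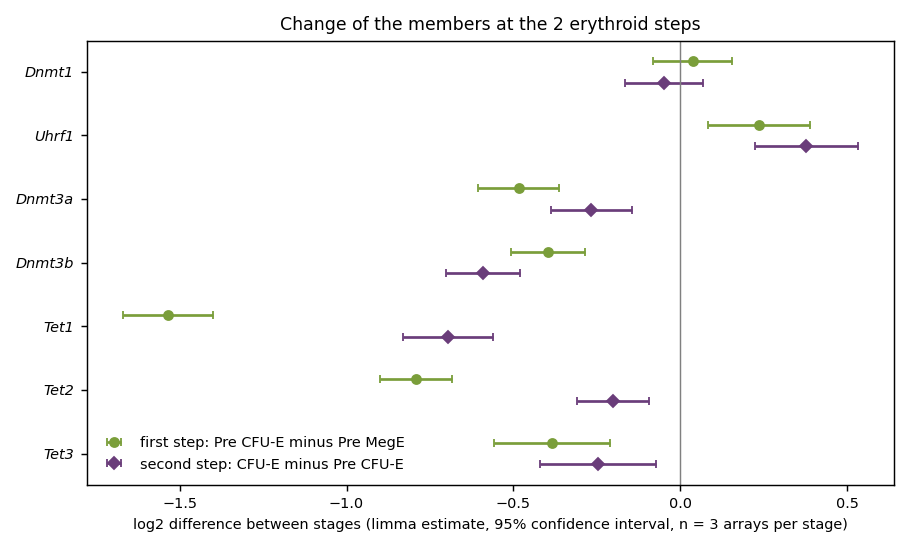
Log2 difference of each gene at the first step (Pre CFU-E minus Pre MegE, circles) and the second step (CFU-E minus Pre CFU-E, diamonds), with 95% confidence intervals from limma, n = 3 arrays per stage. Tet1 and Tet2 fell more at the first step (-1.53 and -0.79) than at the second (-0.70 and -0.20), and of the 7 genes Uhrf1 alone has both intervals above 0.

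Whether the steps differed was tested as the second step minus the first, a contrast added after the data had been seen. It was called for Tet1 at 0.84 ± 0.10 log2 (SE, adjusted p = 0.000391) and for Tet2 at 0.59 ± 0.08 log2 (SE, adjusted p = 0.000728), both positive because the fall slowed. Thus 2 of 7 members were called higher and 0 of 7 lower, where 14.6% of all genes were called higher and 24.1% lower; at an unadjusted p under 0.05 the members' counts were 3 higher and 1 lower. For Dnmt3a the difference was 0.22 (95% interval 0.01 to 0.43, adjusted p = 0.0938) and for Dnmt3b -0.19 (95% interval -0.39 to 0.00, adjusted p = 0.101). These have opposite signs and neither passed. Uhrf1, Tet3 and Dnmt1 gave 0.14, 0.14 and -0.09 log2, none of them called.

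The summed intensities of granulocyte, early progenitor and megakaryocyte markers fell over the same steps as the de novo and Tet genes. Of the granulocyte markers Elane, Mpo, Prtn3, S100a8 and S100a9, 5 of 5 were above the array median on each of the 9 progenitor arrays, and none was at 0. Their summed intensity was 21469 to 24985 in Pre MegE, 11266 to 14242 in Pre CFU-E and 9926 to 12793 in CFU-E. Early progenitor markers (Cd34, Gata2, Meis1, Slamf1, Kit) summed to 20955 to 21828 in Pre MegE, 8686 to 8965 in Pre CFU-E and 4325 to 4565 in CFU-E. The 4 megakaryocyte markers on the array summed to 4465 to 4922 in Pre MegE, 1367 to 1462 in Pre CFU-E and 1209 to 1271 in CFU-E. At the second step the mean levels of Itga2b (8.69 to 7.92) and Pf4 (7.95 to 7.24) fell. Those of Gp9 (8.86 to 8.98) and Vwf (8.22 to 8.43) rose. Slamf1 encodes CD150 and Itga2b, one of the megakaryocyte markers, encodes CD41, both used in the sort. Whether the progenitors themselves or other cells carried these markers was not tested. The part of either in the falls of Dnmt3a, Dnmt3b, Tet1, Tet2 and Tet3 was not tested.

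No difference between Zbtb46 genotypes was called for any of the 7 genes in the progenitors. Averaged over the 3 stages, KO minus WT lay between -0.06 log2 for Tet2 and 0.15 log2 for Tet3. The interval for Tet3 was -0.03 to 0.32 (adjusted p = 0.921), and for Uhrf1 the difference was 0.12 log2 with an interval of -0.04 to 0.27 (adjusted p = 0.971). By limma 0 of 7 members were called in either direction, and 0 of 7 at an unadjusted p under 0.05, where 0.0187% of all genes were called higher and 0.121% lower. Het minus WT gave 0 of 7 as well, also at an unadjusted p under 0.05, with 0.00934% of genes called higher and 0.028% lower. The same counts of 0 held for KO minus Het, where 0% of genes were called higher and 0% lower. Intervals of the 7 genes reached no further than 0.32 log2 from 0 in KO minus WT and in Het minus WT. They are unadjusted, hold for the mean over the 3 stages, and give no limit of what could be called. They do not bound a difference within a single stage. In CFU-E, KO minus WT was 0.29 log2 for Tet3 and 0.29 log2 for Uhrf1, with no replicate check.

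By limma the DC differed from the progenitors in 6 of 7 members, as they did in most genes tested. Dnmt3a and Tet2 were higher in DC, at 2.76-fold and 2.79-fold, while Uhrf1 was 8.23-fold, Dnmt1 6.19-fold, Tet1 3.06-fold and Dnmt3b 2.62-fold lower; in DC, Tet1 and Dnmt3b were each above the array median on 1 of 2 arrays, and Tet1 in WT DC was 0.18 log2 over it. After quantile normalization the differences were 2.10 log2 for Dnmt3a, 2.10 log2 for Tet2 and -1.96 log2 for Dnmt1, each moving the fold by more than 1.5 times. Tet3 lay within the range of the progenitors. Limma thus called 2 of 7 members higher and 4 of 7 lower, in a comparison where 25.3% of the 11560 genes tested were called higher and 64.6% lower. These counts give shares near those of all genes. The median over all genes was -0.59 log2 on the deposited scale and -0.10 after quantile normalization, and the share of higher calls was 28.2% on the deposited scale and 45.9% after quantile normalization. The median of the 7 members was -1.39 log2 on the deposited scale. DC and progenitors also differed in organ and sort panel, which cannot be told apart from cell type here.

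Among the maintenance genes, Dnmt1 had 9.35 in KO DC and 9.77 in WT DC, against 12.10 to 12.25 over the 9 progenitor arrays. The difference from the mean of the stages was -2.63 ± 0.09 log2 (SE, adjusted p = 3.80e-10). Uhrf1 had 7.78 in KO DC and 8.47 in WT DC, against 10.78 to 11.64 in the progenitors, a difference of -3.04 ± 0.14 log2 (SE, adjusted p = 4.14e-09). For both genes each DC array lay far under every progenitor array, and the KO DC array under the WT DC array. In KO DC, Uhrf1 was 0.14 log2 above the array median.

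The de novo pair parted in DC. Dnmt3a had 10.40 in KO DC and 10.57 in WT DC, against 8.65 to 9.52 in the progenitors (1.47 ± 0.06 log2, SE, adjusted p = 2.31e-09). Dnmt3b had 7.53 in KO DC and 7.62 in WT DC, against 8.36 to 9.49 in the progenitors (-1.39 ± 0.06 log2, SE, adjusted p = 1.70e-09). Both DC arrays were above all progenitors for Dnmt3a and below all of them for Dnmt3b. The Dnmt3b level in DC was at the array median, 0.11 log2 under it in KO and 0.01 log2 over it in WT.

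Tet1 and Tet2 parted in the same way. Tet1 had 7.47 in KO DC and 7.79 in WT DC, against 8.23 to 10.57 in the progenitors (-1.61 ± 0.08 log2, SE, adjusted p = 3.77e-09), and in KO DC it was 0.16 log2 under the array median. Its other probe sets gave -1.40 and -1.29 log2. Tet2 had 11.005 in KO DC and 10.79 in WT DC, against 9.004 to 10.09 in the progenitors (1.48 ± 0.07 log2, SE, adjusted p = 3.12e-09). The order of Tet2 levels was DC, Pre MegE, then Pre CFU-E, then CFU-E, with no overlap between neighbours, and Dnmt3a had the same order. For Tet1, and likewise for Dnmt3b, the order was Pre MegE, Pre CFU-E, CFU-E and DC, again without overlap. Uhrf1 was highest in CFU-E, then Pre CFU-E, then Pre MegE and lowest in DC, while for Dnmt1 the 3 stages overlapped and stood above DC.

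Tet3 had 10.01 in KO DC and 10.03 in WT DC, against 9.78 to 10.58 in the progenitors. The difference from the mean of the stages was -0.15 ± 0.08 log2 (SE, 95% interval -0.34 to 0.03, adjusted p = 0.0934) and was not called. Set against single stages it was -0.49 log2 from Pre MegE, -0.11 from Pre CFU-E and 0.14 from CFU-E. After quantile normalization the difference from the mean of the stages turned to 0.54 log2 (adjusted p = 8.58e-05), so no direction is given for Tet3. No other member changed sign under that scaling.

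**Figure D3:**
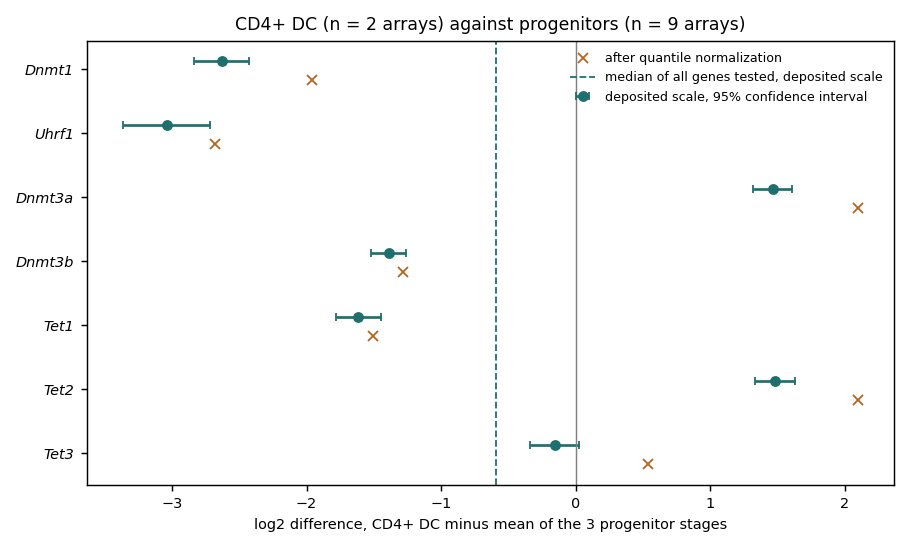
Log2 difference of CD4+ DC (n = 2 arrays) from the mean of the 3 progenitor stages (n = 9 arrays) for each gene. Circles with 95% confidence intervals are from the deposited scale and crosses from quantile-normalized values, the dashed line is the median of all genes tested (-0.59); Dnmt3a and Tet2 lie above 0 on both scales, Dnmt1, Uhrf1, Dnmt3b and Tet1 below, and Tet3 on either side.

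Within the DC pair, 6 of 7 genes had a lower value in KO and Tet2 a higher one, on arrays where 61.2% of 10554 genes were lower in KO, with a median difference of -0.05 log2. The differences of the 2 arrays were -0.42 log2 for Dnmt1, -0.69 for Uhrf1, -0.17 for Dnmt3a, -0.10 for Dnmt3b, -0.32 for Tet1, 0.22 for Tet2 and -0.02 for Tet3. With 1 array per genotype these have no replicate check. Of those 10554 genes, which reached the median of the KO DC or the WT DC array, 5.27% were lower in KO by at least 0.4 log2 and 11.3% were higher by at least 0.2 log2. In the progenitors, KO minus WT for Uhrf1 was -0.01 in Pre MegE, 0.07 in Pre CFU-E and 0.29 in CFU-E, and for Dnmt1 it was 0.03, -0.05 and 0.14.

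A fit that takes the spread of the 2 single DC arrays to be that of the progenitors tested the KO effect in DC against that in progenitors. Its SE and p hold no measurement of how DC arrays of 1 genotype vary. It called Uhrf1 at -0.81 ± 0.14 log2 (SE, adjusted p = 0.0141) and Dnmt1 at -0.47 ± 0.10 log2 (SE, adjusted p = 0.0423). That is 2 of 7 members lower and 0 of 7 higher, where 3.01% of all genes were called lower and 1.56% higher; at an unadjusted p under 0.05 the members' counts were 3 lower and 1 higher. After quantile normalization 45.2% of the called genes were higher, in place of 34.1%, and Dnmt1 was not called (-0.42 log2, adjusted p = 0.0608). The Dnmt1 call was also lost without any 1 of 6 of the 9 progenitor arrays (WT Pre MegE, WT Pre CFU-E, WT CFU-E, Het Pre MegE, Het CFU-E or KO Pre MegE), with adjusted p between 0.0548 and 0.112. The Uhrf1 call was lost without the WT Pre CFU-E array (-0.80 log2, adjusted p = 0.0524).

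**Figure D4:**
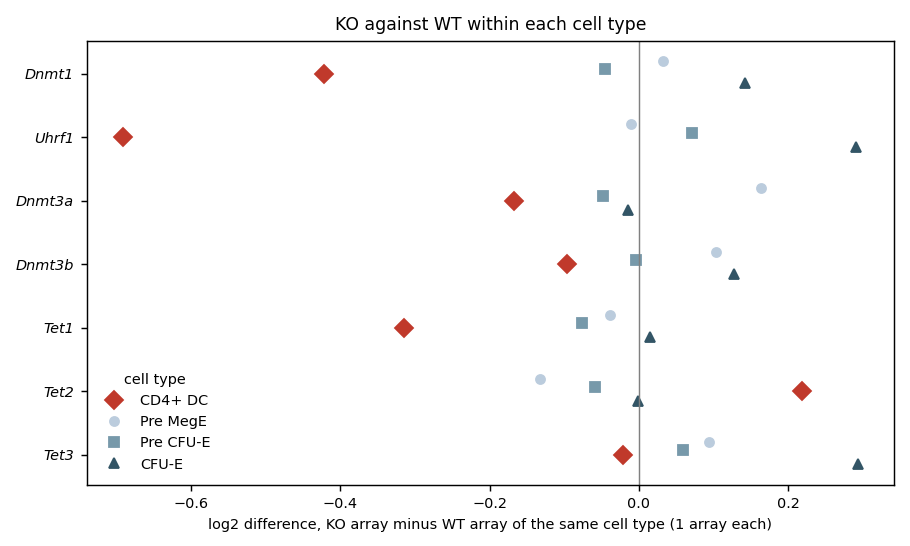
KO minus WT log2 difference of each gene within each cell type, 1 array per genotype. Diamonds are CD4+ DC, and circles, squares and triangles are the 3 progenitor stages; Uhrf1 (-0.69) and Dnmt1 (-0.42) in DC lie apart from their progenitor values.

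Other S phase genes moved with Uhrf1. The list held replication licensing, clamp and nucleotide genes, and 23 of its 24 genes were named on the array. From Pre MegE to CFU-E 23 of 23 were called higher and 0 lower, where 41.5% of all genes were called higher and 35.1% lower. The median difference of the list was 0.82 log2 beside 0.05 for all genes. They were led by Ccne1 (3.03 log2, cyclin E1, which drives S phase entry), Rrm2 (1.99 log2, a subunit of the enzyme that makes deoxynucleotides), Cdc6 (1.52 log2, which loads the replicative helicase) and Ccne2 (1.49 log2). In DC against progenitors 23 of 23 were called lower, where 64.6% of all genes were, with a median of -2.76 log2 beside -0.59. Among them were Rfc4 (-3.94 log2, of the clamp loader) and Mcm6 (-3.56 log2, of the replicative helicase). In KO DC 23 of 23 were lower than in WT DC, where 61.2% of 10554 genes were lower. The median difference of the list was -0.53 log2, with a range of -0.92 to -0.03. Dnmt1 shared the drop to DC and the lower KO DC value, but not the increase over the stages. The mean log2 level of the list was 8.47 in KO DC and 8.98 in WT DC. Over the 3 genotypes it was 10.94 to 11.04 in Pre MegE, 11.49 to 11.55 in Pre CFU-E and 11.84 to 11.91 in CFU-E. In the fit of the KO effect in DC, the median of these genes was -0.57 log2, beside -0.05 for all genes tested. The macrophage markers given above were also lower in KO DC; the part of either in the Uhrf1 and Dnmt1 differences was not tested.

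**Figure D5:**
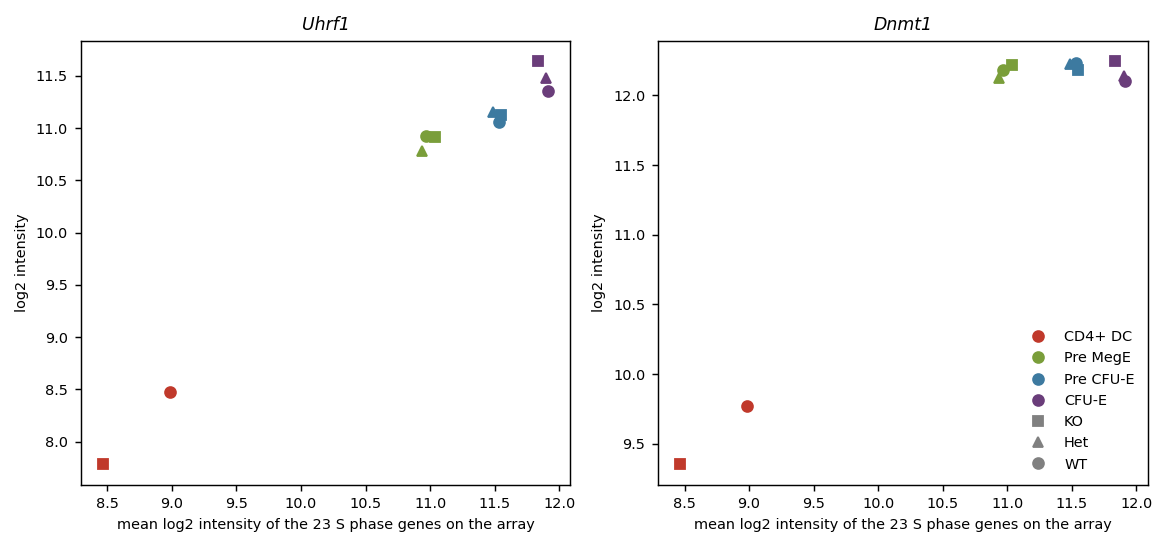
Log2 intensity of Uhrf1 (left) and Dnmt1 (right) on each of the 11 arrays against the mean log2 intensity of 23 S phase genes on that array. Colours mark the cell type and shapes the genotype; Uhrf1 increases along with the list from Pre MegE to CFU-E, whereas Dnmt1 stays at 12.10 to 12.25.

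A list drawn up around maintenance methylation gave 9 tested genes in the progenitors, and a part in maintenance is not implied for each of them. From Pre MegE to CFU-E 5 were called higher and 1 lower, with a median of 0.20 log2, where 41.5% of all genes were higher and 35.1% lower. The called genes that changed most were Hells (0.67 log2, a chromatin remodeller needed for DNA methylation), Hdac1 (0.57 log2, a histone deacetylase), Usp7 (0.40 log2, a deubiquitinase that binds Dnmt1 and Uhrf1) and Lig1 (0.39 log2, the ligase of lagging-strand DNA). In DC 9 of these 9 were called lower, where 64.6% of all genes were, with a median of -1.58 log2 beside -0.59; they were led by Cdca7 (-3.88 log2, a partner of Hells), Lig1 (-3.24 log2) and Hells (-2.89 log2). In the fit of the KO effect in DC 3 of 9 were called lower, where 3.01% of all genes were: Hells (-0.95 log2), Cdca7 (-0.84 log2) and Lig1 (-0.70 log2). Zfp57, which passed the filter only through the DC arrays, is not counted in DC.

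Genes of the methyl-CpG binding domain family and zinc finger readers of methylated DNA moved in both directions. The list was drawn up by family, and binding of methylated DNA by each member is not implied. Of 8 tested, 2 were called higher and 4 lower from Pre MegE to CFU-E: Mbd2 (0.57 log2) and Mbd3 (0.37 log2), both of the methyl-CpG binding domain family, were higher, and Mbd6 (-0.66 log2) and Zbtb38 (-0.56 log2) led the lower ones. Of all genes 41.5% were called higher and 35.1% lower, so lower calls led in this list and higher calls among all genes. The median over both steps was -0.175 log2 for the list and 0.05 log2 for all genes. With 8 genes this is not read as a shift of the list. In DC 1 of 8 was called higher, Zbtb4 (1.12 log2, a zinc finger reader), and 6 lower, with Mbd3 at -1.87 log2, where 25.3% of all genes were higher and 64.6% lower. The median of the 8 was -0.81 log2 beside -0.59 for all genes.

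Genes of the steps after oxidation were likewise mixed. Of 12 tested excision and repair genes, 6 were called higher and 3 lower from Pre MegE to CFU-E, beside 41.5% and 35.1% of all genes. Gadd45b, a stress-induced gene linked to demethylation, fell by 2.08 log2 and the glycosylase gene Neil1 by 1.12 log2, and Polb (0.69 log2, the repair polymerase) and Ung (0.45 log2, uracil glycosylase) were higher. In DC 4 were called higher and 7 lower, beside 25.3% and 64.6% of all genes, and Gadd45b (2.87 log2) and Gadd45g (1.92 log2) were the leading higher ones. Gadd45b thus had the signs of Dnmt3a and Tet2, lower along the erythroid stages and higher in DC. It was not alone in this. In the same list Neil1 (0.21 log2 in DC) and Apobec1 (-0.43 log2, then 1.84 log2 in DC) had these signs. Among the readers Zbtb4 (-0.32 log2, then 1.12 log2 in DC) had them as well.

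Of 4 tested partners of the Tet enzymes, 0 were called higher and 2 lower from Pre MegE to CFU-E: Cxxc5 (-1.59 log2, a CXXC-domain protein that binds Tet2) and Ogt (-0.74 log2, the O-GlcNAc transferase that associates with Tet proteins). In DC 4 of 4 were called lower, from -2.81 log2 for Dcaf1 to -0.35 log2 for Ogt, where 64.6% of all genes were lower. The supply of methyl groups and of oxoglutarate, the co-substrate of the Tet enzymes, was covered by 8 tested genes. Of these 5 were called higher and 3 lower from Pre MegE to CFU-E, beside 41.5% and 35.1% of all genes, with Mthfd1 (1.37 log2, folate metabolism) and Idh3a (1.20 log2, an oxoglutarate-making enzyme subunit) higher and Idh1 (-1.13 log2, which makes oxoglutarate in the cytosol) and Shmt1 (-0.91 log2) lower. In DC 8 of 8 were called lower, with a median of -1.75 log2 beside -0.59 for all genes.

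The genes with the most similar profile over the 11 arrays were searched among 11131 genes by Pearson's r of log2 intensity. These values are high because all arrays fall into DC and progenitors, and they describe likeness only. For Dnmt1 they were Fads1, Alg2 and H2bc1 (r = 0.999 each). For Uhrf1 they were Fcho1 (r = 0.999), Mcm4 (r = 0.998), a subunit of the replicative helicase, and Zdhhc3 (r = 0.998). Dnmt3a was closest to Vasp (r = 0.997), Myadm (r = 0.997) and Cyria (r = 0.996), and Dnmt3b to Zfp358 (r = 0.998), Lrrc1 (r = 0.996) and Hmga2 (r = 0.996). Tet1 was closest to Nfya (r = 0.997), Sh2b1 (r = 0.996) and Asah2 (r = 0.996), and Tet2 to Fcgr2b (r = 0.998), Abcb1b (r = 0.996) and Pim1 (r = 0.996). Tet3 had the loosest likeness of the 7, with Clec16a (r = 0.980), Prr12 (r = 0.976) and St3gal1 (r = 0.975).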

How the data were processed

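Total RNA was labelled with an Ambion/Affymetrix kit per the labels' protocols. The authors deposited 1 linear intensity per probe set and array, made with RMA per the submitters' processing notes. Sources used here give neither its version nor any later scaling. That the scale is linear was judged by the range of the values. Log2 was taken, with no rescaling. Of 29674 probe sets, 21780 had 1 symbol, 1618 several and 6276 none listed.

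A gene entered a fit if at or above its array's median on at least 2 arrays (10701 genes over 9 progenitor arrays, 11560 over 11). Two-sided tests were fitted with limma 3.58.1 (lmFit, contrasts.fit, eBayes; R 4.3.3) across all genes with stage or cell type and genotype as additive terms (4 and 5 residual degrees of freedom), Benjamini-Hochberg adjustment and a threshold of 0.05. A fit with a term for KO in DC had 4 residual degrees of freedom. Each group has 1 array, so p-values measure the spread between these arrays, and their number limits the precision. The scripts were tested on simulated data.

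The 7 members, the companion and marker lists and the motif were chosen with earlier results of these data known. The named genes were all members, Zbtb46, at most 4 called genes per companion list with the largest difference, and 3 genes per member with the highest r. Apobec1 was added for having the signs of Gadd45b. Alternatives were 2 other scalings, other filters, array weights, no genotype term, an intensity trend, the mean of a gene's probe sets, fewer groups, and leaving out each array. Promoter sequences are from RefSeq, GRCm38.p6.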

Additional observations from a re-analysis of the deposited data

Results flagged for a closer look

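The KO effect in DC was set against that in progenitors, and the test of the difference called 2 of the 7 genes. For Uhrf1 it was lower in DC by -0.8076 log2 (limma, adjusted p = 0.0141), with KO minus WT at -0.69 in DC and between -0.01 and 0.29 in the 3 progenitor stages. For Dnmt1 the difference was -0.4651 log2 (limma, adjusted p = 0.0423), with KO minus WT at -0.42 in DC and between -0.05 and 0.14 in the progenitor stages. Each rests on 1 KO and 1 WT DC array, with a spread measured on the progenitor arrays. The Dnmt1 call was lost after quantile normalization (adjusted p = 0.0608) and without any 1 of 6 of the 9 progenitor arrays, and the Uhrf1 call without WT Pre CFU-E (adjusted p = 0.0524). S phase genes were lower in KO DC in 23 of 23 cases beside them, where 61.2% of 10554 genes were lower.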

How the results depend on the processing

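Over the 7 genes and all comparisons, 1401 of 1434 recomputed differences kept their side of the threshold and, where called, their direction; 42 of these, none called and none larger than 0.11, changed sign. Of the others 19 no longer passed, 7 newly passed, 3 changed both call and sign and 4 untested ones moved by more than the spread. The rise of Uhrf1 at the first step missed it after quantile normalization (0.1582, adjusted p = 0.0778), where 0 members were called higher. Over the 9 fits that leave out 1 array this difference was 0.1836 to 0.3105 and the count of members higher was 0 to 1. The second step of Tet3 missed the threshold with arrays centred on their medians (-0.2093), without a filter and with only 2 stages (-0.2461 in both), and leaving out 1 array gave -0.3349 to -0.1507. Array weights called Dnmt1 at the second step (-0.0955).

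For the second step minus the first, Dnmt3a passed after quantile normalization (0.3131) and with array weights (0.1695), and Dnmt3b with centred arrays (-0.242) and array weights (-0.2927), so that 1 member was lower under centring and under array weights. All genes called there were 1565 higher and 2575 lower, but 953 and 1588 without WT Pre CFU-E, and 1667 lower without KO Pre CFU-E. For CFU-E against Pre CFU-E 2004 were higher, but 3416 with array weights and 1322 without WT Pre CFU-E.

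Quantile normalization turned Tet3 in DC to 0.5355 against all stages, 0.1596 against Pre MegE and 0.6153 against Pre CFU-E, and made it 0.8315 against CFU-E, where leaving out 1 array gave 0.0521 to 0.2487. Asking for the median on every array, a rule that Dnmt3b and Tet1 could not meet, left 2 members called lower in DC against the mean of the stages, Pre CFU-E and CFU-E, and 3 against Pre MegE. Genes called higher in DC were 2928, but 4671 after quantile normalization, 6681 without a filter and 1509 with the median on every array.

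The KO effect in DC minus that in progenitors was -0.4159 for Dnmt1 after quantile normalization, which left 1 member called lower. Leaving out 1 array gave -0.511 to -0.427 for Dnmt1, -0.8818 to -0.7397 for Uhrf1 and 0 to 2 members. All genes called there were 180 higher and 348 lower; quantile normalization gave 513 and 622, and leaving out WT Pre CFU-E gave 71 and 130. Quantile normalization moved KO minus WT in DC to -0.3623 for Dnmt1, -0.1679 for Dnmt3b, -0.922 for Uhrf1 and -0.4501 for Tet1. For KO minus WT in progenitors all genes called were 2 higher and 13 lower, and 0 to 2 higher and 1 to 24 lower without 1 array. The causes of these changes were not tested, beyond the filter named. No paired analysis was possible because each group has 1 array and the labels give no replicate numbers, but genotype is a term of the fits and serves as their block. Levels near the array median, as of Dnmt3b and Tet1 in DC, may be limited by background.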
